A study of Rattus norvegicus with 28 samples.

Results

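The mammalian circadian clock genes *Per1*, *Per2*, *Per3*, *Cry1*, *Cry2*, *Arntl*, *Clock*, *Nr1d1*, *Nr1d2* and *Dbp* were followed in INS-1 cells, an insulin-secreting line from a rat insulinoma. These 10 genes were found by symbol among the 17455 symbols of the deposited table of TPM, a transcript level scaled for length and sequencing depth. Where a symbol had more than 1 transcript, that of highest mean TPM was taken. All 10 passed a minimum of 1 TPM as the mean over libraries, as did 10275 genes in all. The 28 RNA-seq libraries form 14 groups of 2. WT cells and Med14 S983A cells, in which serine was replaced by alanine in Med14, a scaffold subunit of the Mediator complex, were taken untreated (CON) or after 1, 8 or 16 h with either of 2 agents. Exendin-4 (Ex-4) at 10 nM acts through the GLP-1 receptor, and forskolin (FSK) at 10 µM activates adenylyl cyclase, so both raise cAMP. Before treatment the cells were washed and put in serum-free medium. The study asked how the transcriptional response to cAMP depends on this residue. The knock-in was made by CRISPR editing and cells were sorted singly, so each mutant line is a clone. The study's methods speak of biological replicates and of more than 1 independently made mutant line, but the labels say neither which line these libraries are nor whether the 2 libraries of a group came from separate cultures or lines. The p-values below measure the spread between these libraries, which may be technical if they did not.

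The clock is a delayed negative feedback loop. ARNTL (also called BMAL1) and CLOCK bind E-box elements and activate the *Per* and *Cry* genes, whose proteins return to inhibit them, while the REV-ERB receptors encoded by *Nr1d1* and *Nr1d2* repress *Arntl* through ROR response elements (RORE). *Dbp*, an E-box target, encodes an activator of D-box elements, and *Per1* is a known target of the cAMP-responsive factor CREB. Islet beta cells hold such a clock, which gates insulin secretion over the day.

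RefSeq promoter windows (GRCr8, from 250 bases before to 50 after an annotated start) were found for 9 of the 10 genes, 11 windows in all. They were searched on both strands for the CRE (TGACGTCA), its short form (TGACG, which also lies inside the CRE), the E-box (CACGTG), the D-box (TTATGTAA) and the RORE core (AGGTCA). Of all 33469 windows, 1.83% hold the CRE, 21.2% the short form, 6.42% the E-box, 0.893% the D-box and 16.2% the RORE core. The 250 bases before the start are printed for the 4 windows that hold an E-box, D-box or RORE core, the elements through which the clock genes act on each other, with that motif in capitals. They are *Per2* with a D-box at position -192 (chr9:99496994-99497243, minus strand), *Arntl* with a RORE core at -15 (chr1:176766078-176766327, plus strand), *Nr1d2* with a RORE core at -187 (chr15:9954784-9955033, plus strand) and the second window of *Nr1d1* with an E-box at -191 (chr10:84229455-84229704, minus strand). Positions give the first base of the motif relative to the start.
Per2: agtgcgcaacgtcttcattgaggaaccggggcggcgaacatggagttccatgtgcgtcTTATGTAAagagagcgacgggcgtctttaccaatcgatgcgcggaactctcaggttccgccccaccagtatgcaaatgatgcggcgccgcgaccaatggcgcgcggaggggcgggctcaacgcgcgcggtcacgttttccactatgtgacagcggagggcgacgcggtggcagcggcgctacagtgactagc
Arntl: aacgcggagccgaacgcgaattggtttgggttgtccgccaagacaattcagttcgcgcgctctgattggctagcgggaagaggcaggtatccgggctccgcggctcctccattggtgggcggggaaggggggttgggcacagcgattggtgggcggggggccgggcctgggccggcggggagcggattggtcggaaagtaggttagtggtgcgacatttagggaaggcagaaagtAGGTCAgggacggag
Nr1d2: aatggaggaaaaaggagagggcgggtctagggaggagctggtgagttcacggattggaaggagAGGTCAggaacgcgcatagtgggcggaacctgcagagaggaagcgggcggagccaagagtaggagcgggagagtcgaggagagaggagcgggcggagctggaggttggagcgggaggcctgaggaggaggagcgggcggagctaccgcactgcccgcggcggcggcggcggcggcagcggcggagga
Nr1d1: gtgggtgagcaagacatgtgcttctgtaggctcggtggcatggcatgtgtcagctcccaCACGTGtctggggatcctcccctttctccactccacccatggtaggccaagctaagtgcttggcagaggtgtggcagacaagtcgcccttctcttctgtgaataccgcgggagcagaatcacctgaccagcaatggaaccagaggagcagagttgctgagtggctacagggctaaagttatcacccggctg
The short CRE form lies at -164 of *Per3* (minus strand) and at 39 of *Per2* and of *Nr1d2* (minus strand). No full CRE is in the 11 windows, and the windows of *Per1*, *Cry2*, *Clock* and *Dbp* hold none of the motifs, which says only that these letters are not in these windows. A match is a description and not a site.

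Libraries held 42183632 to 91794144 fragments over the transcripts of the table, the most in replicate 2 of the 8 h FSK group of Med14 S983A. A clock gene was covered by 14 to 31453 fragments in a library, the fewest for *Per3* in WT at 8 h of FSK. *Med14* was at 21.5 and 20.3 TPM in WT CON and 19.6 and 20.3 TPM in Med14 S983A CON. The edit is a point substitution, so this level does not check the genotype labels. Of 12 beta cell markers 11 are in the table, and *Ins1* was at 33716 to 67834 TPM. Their summed level was 51396 to 52324 TPM in WT CON and 80943 to 89844 TPM in Med14 S983A CON, but single markers differed in both directions. *Ins2* was 11.9-fold higher in Med14 S983A CON, and *Slc2a2* was 8.14-fold and *Iapp* 2.14-fold lower. *Nkx6-1* was 1.49-fold lower and not called. Of the alpha cell markers, *Gcg* was at 6.09 to 1345 TPM and *Irx2* at 0 in every library. The summed level of the alpha cell list was 165 to 169 TPM in WT CON, 758 to 918 TPM at 8 h and 947 to 966 TPM at 16 h of Ex-4, and 1225 to 1345 TPM at 8 h of FSK. In Med14 S983A it was 6.10 to 6.60 TPM at CON, 38.6 to 42.0 TPM at 8 h and 43.5 to 45.6 TPM at 16 h of Ex-4, and 102 to 110.3 TPM at 8 h of FSK. These levels moved with both agents and with genotype, and their part in the results was not tested. Each marker of delta, PP, acinar and endothelial cells was under 0.7 TPM in every library. The fibroblast marker *Pdgfra* reached 4.07 TPM and was 1.47-fold higher in Med14 S983A CON, not called, and the macrophage marker *Cd68* reached 1.75 TPM, at 16 h of FSK in Med14 S983A.

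Treatment was compared with CON of the same genotype on log2(TPM + 1), with limma fitted to all 10275 genes. A gene was called where the Benjamini-Hochberg adjusted p was below 0.05 and the fold exceeded 1.5. All folds are on the TPM + 1 scale, which understates the change of low genes. There is 1 CON group per genotype and no untreated group at 8 or 16 h, so the treatment and the time since the change of medium cannot be told apart in these comparisons. The 6 comparisons of a genotype share its CON libraries. In bulk RNA, fewer cells expressing a gene and less of its RNA per cell cannot be told apart.

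**Figure D1:**
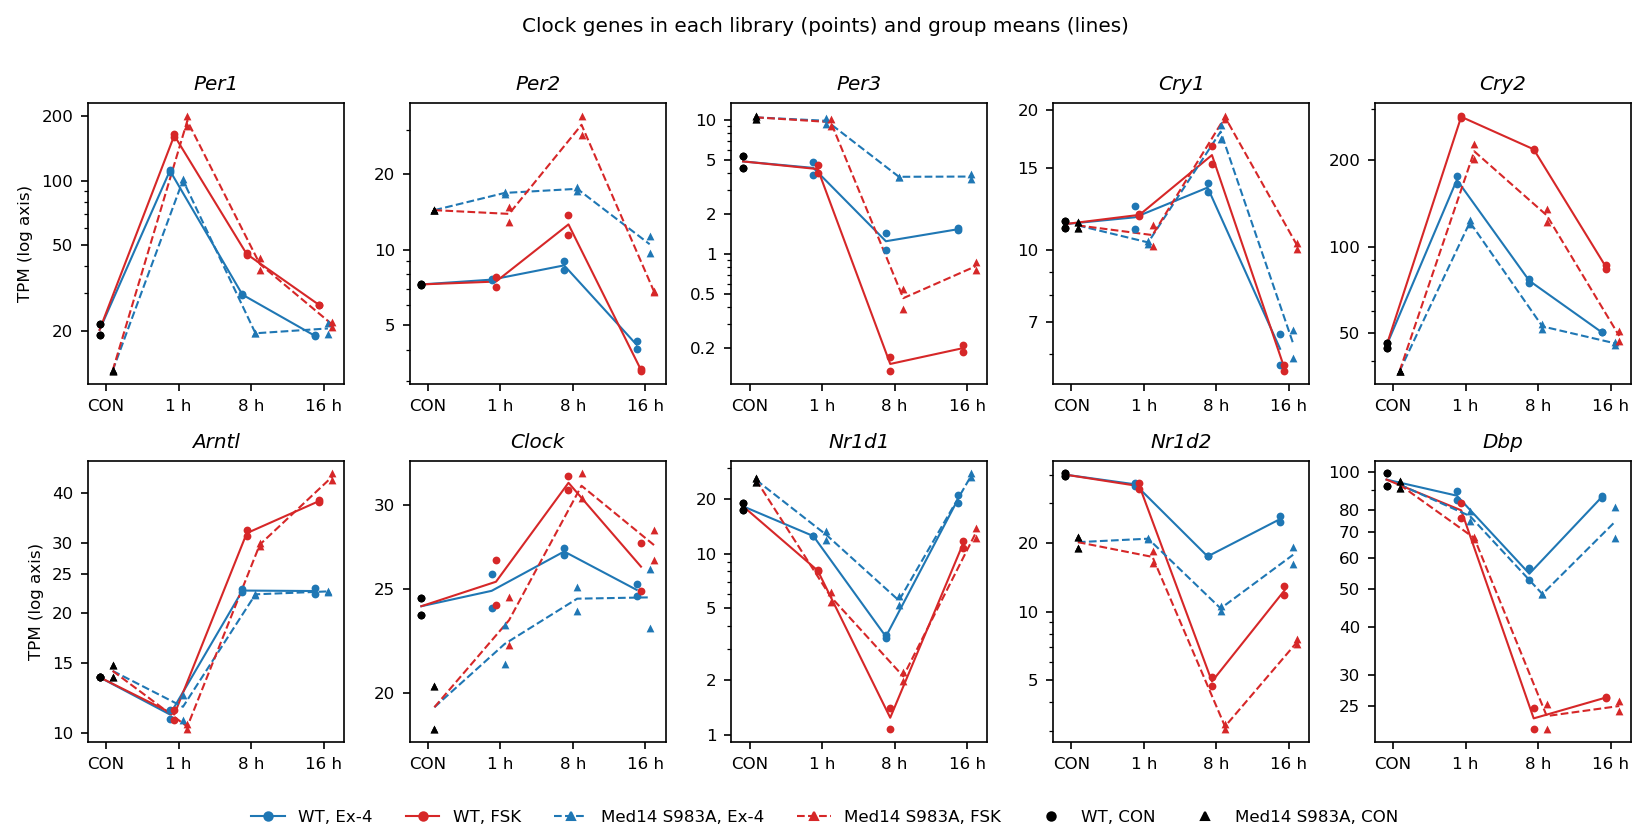
TPM (log axis, a different range in each panel) of the 10 clock genes in each of the 28 libraries (points) at CON and after 1, 8 and 16 h, with lines through the group means. Time points are evenly spaced and not to scale. *Per1* and *Cry2* peak at 1 h, *Nr1d1* has its minimum at 8 h, and *Arntl* is highest at 16 h of FSK.

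*Per1* and *Cry2*, which encode repressors of ARNTL and CLOCK, rose within 1 h of both agents in both genotypes, and none of the other 8 was called higher at 1 h. *Per1* (NM_001034125, rn6 chromosome 10, 55687124 to 55696020, plus strand) was at 21.4 and 19.04 TPM in WT CON and 110.1 and 113 TPM after 1 h of Ex-4, a 5.31-fold rise (log2 2.41, SE 0.0624, limma adjusted p = 1.87e-20). After 1 h of FSK it was at 166 and 159 TPM, a 7.72-fold rise (limma adjusted p = 9.48e-23). Neither 1 h group overlaps CON. *Per1* was then lower again, at 29.4 and 29.5 TPM at 8 h and 18.9 and 19.1 TPM at 16 h of Ex-4, neither called, and at 45.1 and 46.00 TPM at 8 h of FSK, 2.196-fold above CON. At 16 h of FSK it was at 26.5 and 26.3 TPM, 1.29-fold above CON and not called. With ERCC scaling, median-centring and DESeq2 both the 8 h Ex-4 and the 16 h FSK values are called higher, as is the former in edgeR and without WT CON replicate 1. In Med14 S983A, *Per1* went from 12.95 and 13.2 TPM to 98.8 and 102 TPM at 1 h of Ex-4 (7.23-fold) and 179 and 201 TPM at 1 h of FSK (13.6-fold). It was at 43.7 and 38.2 TPM at 8 h and 21.9 and 20.9 TPM at 16 h of FSK, both called higher (2.98-fold and 1.59-fold). The call at 16 h of Ex-4 in these cells (21.7 and 19.3 TPM, 1.53-fold) is lost with ERCC scaling, with DESeq2 and without replicate 1 of that group.

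*Cry2* (NM_133405, rn6 chromosome 3, 81314151 to 81344109, minus strand) had the highest mean TPM, a level per length, of the 10. It rose from 46.4 and 44.5 TPM in WT CON to 165 and 175 TPM at 1 h of Ex-4 (3.68-fold, limma adjusted p = 4.51e-20). At 8 h of Ex-4 it was at 77.2 and 74.99 TPM, still 1.66-fold above CON, and at 16 h at 50.4 and 50.5 TPM, not called. FSK gave 284 and 278 TPM at 1 h (6.07-fold), 216 and 218 TPM at 8 h (4.69-fold) and 86.1 and 83.3 TPM at 16 h (1.85-fold). In WT with FSK, *Cry2* was thus called at all 3 times and *Per1* at 1 and 8 h. In Med14 S983A, *Cry2* went from 37.1 and 36.98 TPM to 119.7 and 123 TPM at 1 h of Ex-4 (3.22-fold) and to 201 and 226 TPM at 1 h of FSK (5.63-fold). It was at 135 and 122 TPM at 8 h of FSK (3.39-fold). At 16 h of FSK it was at 50.8 and 47.2 TPM, 1.31-fold above CON and not called, though called higher with ERCC scaling.

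*Per2* and *Cry1*, the other main repressors of the loop, were not called at 1 h. *Per2* (NM_031678, rn6 chromosome 9, 98555156 to 98597323, minus strand), whose window above holds a D-box, was at 7.32 and 7.23 TPM in WT CON, 7.65 and 7.55 TPM at 1 h of Ex-4 and 7.82 and 7.12 TPM at 1 h of FSK. At 8 h of FSK it was at 13.8 and 11.4 TPM, 1.64-fold higher (limma adjusted p = 3.63e-08), and at 16 h at 3.28 and 3.37 TPM, 1.91-fold lower. Ex-4 gave 9.0 and 8.31 TPM at 8 h, not called, and 4.04 and 4.33 TPM at 16 h, 1.596-fold lower, a call lost with median-centring, ERCC scaling and DESeq2. All 4 WT libraries at 16 h lie below every other WT library. In Med14 S983A, *Per2* was at 14.4 and 14.3 TPM at CON, 34.1 and 28.6 TPM at 8 h of FSK (2.100-fold higher) and 6.84 and 6.79 TPM at 16 h (1.96-fold lower). With Ex-4 it was at 17.1 and 17.8 TPM at 8 h and 11.3 and 9.67 TPM at 16 h, neither called.

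*Cry1* (NM_198750, rn6 chromosome 7, 24534615 to 24634098, plus strand) was at 11.6 and 11.2 TPM in WT CON, 13.3 and 13.9 TPM at 8 h of Ex-4 and 16.7 and 15.3 TPM at 8 h of FSK, both without a call. At 16 h it was at 5.68 and 6.61 TPM with Ex-4 (1.74-fold lower) and 5.67 and 5.498 TPM with FSK (1.88-fold lower, limma adjusted p = 2.08e-11). Both calls are lost with ERCC scaling (log2 -0.51 and -0.58), and the Ex-4 call also with DESeq2. In Med14 S983A, *Cry1* was at 11.1 and 11.5 TPM at CON and was called higher at 8 h, at 17.3 and 18.6 TPM with Ex-4 (1.54-fold) and 19.4 and 19.2 TPM with FSK (1.65-fold). The Ex-4 call is lost without replicate 2 of that group (log2 0.58 in place of 0.62). At 16 h it was at 6.73 and 5.88 TPM with Ex-4, called lower, and at 10.3 and 10.1 TPM with FSK, 1.098-fold below CON and not called.

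*Per3* (NM_023978, rn6 chromosome 5, 168088126 to 168123030, minus strand), which encodes a weaker repressor, was called lower in all 8 comparisons at 8 and 16 h and in none at 1 h. It was at 5.42 and 4.41 TPM in WT CON and 4.89 and 3.904 TPM at 1 h of Ex-4. Ex-4 then gave 1.43 and 1.07 TPM at 8 h (2.63-fold lower) and 1.56 and 1.51 TPM at 16 h (2.33-fold lower). With FSK it was at 0.169 and 0.133 TPM at 8 h (5.12-fold lower, limma adjusted p = 7.19e-17) and 0.210 and 0.186 TPM at 16 h (4.92-fold lower). The 4 WT FSK libraries at 8 and 16 h held 14 to 21 *Per3* fragments, and the pseudocount of 1 TPM is larger than these levels. In Med14 S983A, *Per3* went from 10.2 and 10.8 TPM to 0.550 and 0.386 TPM at 8 h and 0.757 and 0.865 TPM at 16 h of FSK, and to 3.76 and 3.79 TPM at 8 h of Ex-4.

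*Arntl* and *Clock* encode the activator pair. *Arntl* (NM_024362, rn6 chromosome 1, 178039063 to 178137471, plus strand), whose window above holds a RORE core, was called higher in all 8 comparisons at 8 and 16 h in the main limma fit. It was at 13.8 and 13.8 TPM in WT CON and, at 1 h, at 10.9 and 11.4 TPM with Ex-4 and 10.8 and 11.5 TPM with FSK, neither called. Ex-4 gave 22.5 and 22.99 TPM at 8 h (1.604-fold) and 22.3 and 23.1 TPM at 16 h (1.599-fold). FSK gave 32.2 and 31.1 TPM at 8 h (2.205-fold) and 37.8 and 38.4 TPM at 16 h (2.64-fold, limma adjusted p = 1.76e-17). None of these groups overlaps CON. In Med14 S983A it went from 14.8 and 13.9 TPM to 29.9 and 29.3 TPM at 8 h (2.0-fold) and 44.6 and 43.04 TPM at 16 h of FSK (2.93-fold). With Ex-4 it reached 22.3 and 22.2 TPM at 8 h (1.52-fold) and 22.7 and 22.6 TPM at 16 h (1.54-fold). Without Med14 S983A CON replicate 2 both changes fall under the fold threshold (log2 0.56 and 0.58). The 16 h Ex-4 call is also lost with ERCC scaling and DESeq2.

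*Clock* (NM_001289832, rn6 chromosome 14, 34455934 to 34502218, plus strand) had the narrowest range of the 10, with group means from 19.4 TPM in Med14 S983A CON to 31.5 TPM in WT at 8 h of FSK. It was at 24.6 and 23.7 TPM in WT CON and 31.95 and 30.99 TPM at 8 h of FSK, 1.29-fold higher and not called. It was called in Med14 S983A at 8 h of FSK (1.58-fold, limma adjusted p = 2.58e-09). The libraries were at 32.1 and 30.4 TPM against 20.3 and 18.5 TPM at CON, and this call is lost with ERCC scaling. At 16 h of FSK in these cells *Clock* was at 26.6 and 28.4 TPM, not called, though called higher with ERCC scaling. The median log2 change of all genes tested was -0.34 in WT and -0.28 in Med14 S983A at 8 h of FSK. With median-centring, which removes most of that shift, *Clock* (0.76) and *Cry1* (0.85) are both called higher in WT at 8 h of FSK.

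*Nr1d1* and *Nr1d2* encode the REV-ERB repressors of *Arntl*, and both were called lower at 8 h of either agent in both genotypes. *Nr1d1* (NM_001113422, rn6 chromosome 10, 86683875 to 86690815, minus strand) was at 19.1 and 17.6 TPM in WT CON and 12.6 and 12.5 TPM at 1 h of Ex-4, 1.43-fold lower and not called. At 1 h of FSK it was at 8.05 and 8.12 TPM, 2.13-fold lower (limma adjusted p = 8.02e-11). In the main limma fit none of the other 9 was called lower at 1 h in any group. At 1 h of FSK in Med14 S983A, *Dbp* (log2 -0.45) and *Arntl* (log2 -0.43) came nearest. ERCC scaling moved the median of all genes there from -0.11 to -0.30, and more clock genes are called with it and with DESeq2. At 8 h it was at 3.42 and 3.57 TPM with Ex-4 (4.299-fold lower) and 1.07 and 1.41 TPM with FSK (8.63-fold lower). At 16 h of Ex-4 it was back at 19.2 and 21.3 TPM, and at 16 h of FSK at 10.8 and 11.8 TPM, 1.58-fold lower, a call lost with median-centring, ERCC scaling, edgeR and DESeq2 (log2 -0.51 to -0.31). In Med14 S983A it was at 24.9 and 26.3 TPM at CON, 11.99 and 13.5 TPM at 1 h of Ex-4 (1.94-fold lower) and 6.14 and 5.45 TPM at 1 h of FSK (3.92-fold lower). It was at 1.98 and 2.23 TPM at 8 h of FSK and, at 16 h, at 12.2 and 13.96 TPM with FSK and 26.5 and 27.8 TPM with Ex-4, so here too the 16 h libraries lie above the 8 h ones.

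*Nr1d2* (NM_147210, rn6 chromosome 15, 8730871 to 8757165, plus strand) was not called at 1 h. It went from 39.7 and 40.6 TPM in WT CON to 17.5 and 17.5 TPM at 8 h of Ex-4 (2.22-fold lower) and 4.73 and 5.13 TPM at 8 h of FSK (6.95-fold lower, limma adjusted p = 2.77e-21). At 16 h it was at 24.7 and 26.5 TPM with Ex-4 and 11.8 and 13.01 TPM with FSK, between the 8 h and CON libraries. The 16 h Ex-4 call is lost with median-centring, ERCC scaling, edgeR and DESeq2. In Med14 S983A it went from 21.4 and 19.1 TPM to 10.6 and 10.1 TPM at 8 h of Ex-4 (1.87-fold lower) and 3.04 and 3.21 TPM at 8 h of FSK (5.15-fold lower).

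*Dbp* (NM_001289983, rn6 chromosome 1, 101687896 to 101692845, plus strand), the output activator, was at 92.3 and 99.4 TPM in WT CON. Ex-4 gave 56.8 and 52.7 TPM at 8 h (1.74-fold lower) and 85.9 and 86.96 TPM at 16 h, not called. FSK gave 24.6 and 21.7 TPM at 8 h (4.01-fold lower, limma adjusted p = 1.62e-18) and 26.3 and 26.2 TPM at 16 h (3.55-fold lower), so the fall lasted to 16 h with FSK. In Med14 S983A it was at 91.05 and 95.02 TPM at CON, 21.7 and 25.2 TPM at 8 h and 24.2 and 25.7 TPM at 16 h of FSK, and the genotypes overlap at 8 h. *Clock*, *Nr1d1* and *Dbp* are listed with more than 1 transcript whose exons share reads.

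**Figure D2:**
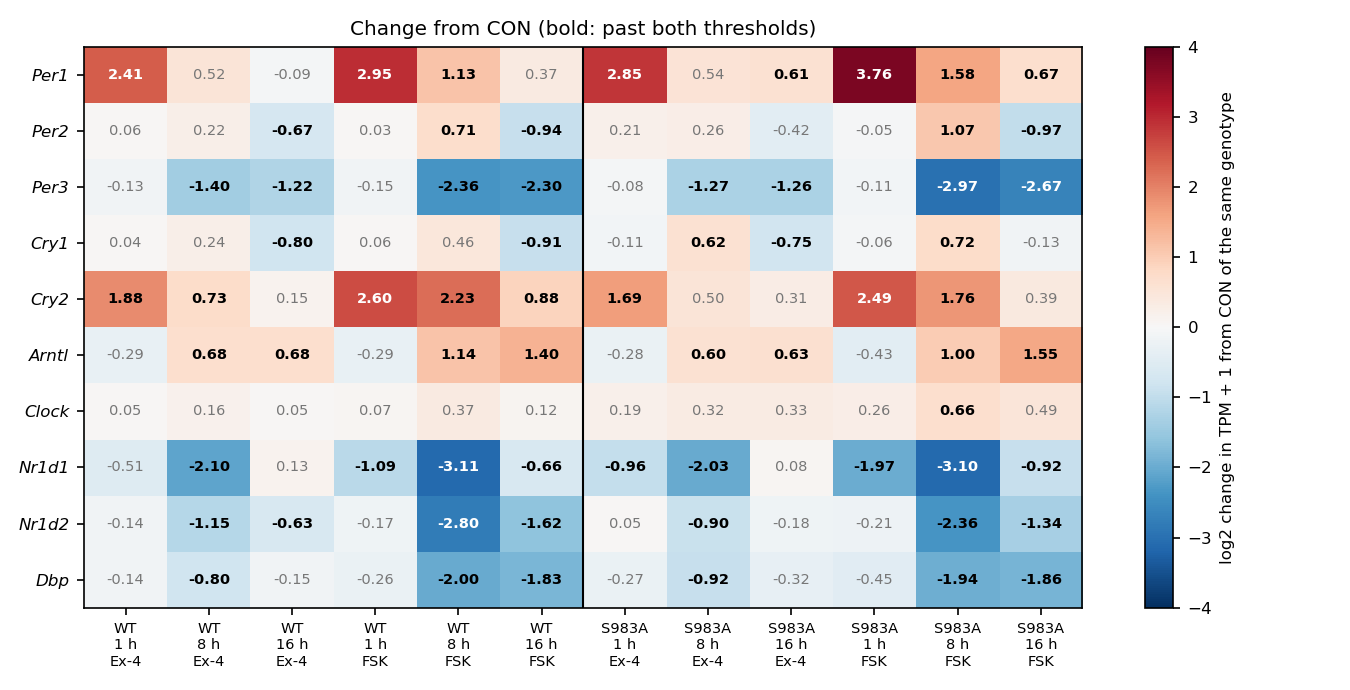
Change of each clock gene from CON of the same genotype in the 12 treatment comparisons, as log2 of TPM + 1 (colour and printed value). Bold values passed both thresholds. The 8 h FSK columns hold 8 bold values of 10 in WT and 10 of 10 in Med14 S983A.

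Over the 10 genes, 2 were called in WT at 1 h of Ex-4, where 2.87% of all genes were, 6 at 8 h beside 9.6%, and 5 at 16 h beside 11.8%. With FSK in WT, 3 were called at 1 h beside 7.47%, 8 at 8 h beside 43.6% and 8 at 16 h beside 34.5%. In Med14 S983A with Ex-4 the counts were 3 beside 3.04% at 1 h, 6 beside 6.3% at 8 h and 4 beside 11.9% at 16 h. With FSK they were 3 beside 10.4%, 10 beside 46.1% and 7 beside 33.3%. At 8 h of FSK in WT, 4 clock genes were called higher and 4 lower, while 901 of all genes were higher and 3579 lower. The median log2 change there was 0.41 over the 10 genes and -0.34 over all genes.

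Ex-4 and FSK were compared with each other at the same time, which does not use CON. At 1 h in WT, 1 clock gene was called beside 1.79% of all genes. This was *Cry2*, 1.65-fold lower with Ex-4 (limma adjusted p = 6.95e-11), while *Per1* was 1.45-fold lower and not called. At 8 h in WT, 6 were called beside 28.1%. *Cry2* (2.83-fold) and *Per1* (1.53-fold) were lower with Ex-4 than with FSK, and *Nr1d2* (3.13-fold), *Dbp* (2.31-fold), *Nr1d1* (2.01-fold) and *Per3* (1.95-fold) were higher. The *Per1* call is lost with ERCC scaling and DESeq2. At 16 h in WT, 6 were called beside 18.7%, with *Dbp* 3.21-fold higher and *Arntl* 1.65-fold lower with Ex-4. In Med14 S983A, 3 were called at 1 h beside 3.03%, 7 at 8 h beside 36.5% and 6 at 16 h beside 16.3%. There *Cry2* was 2.39-fold lower and *Per3* 3.26-fold higher with Ex-4 at 8 h. The 2 agents were used at 1 dose each, so the differences hold for these doses.

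**Figure D3:**
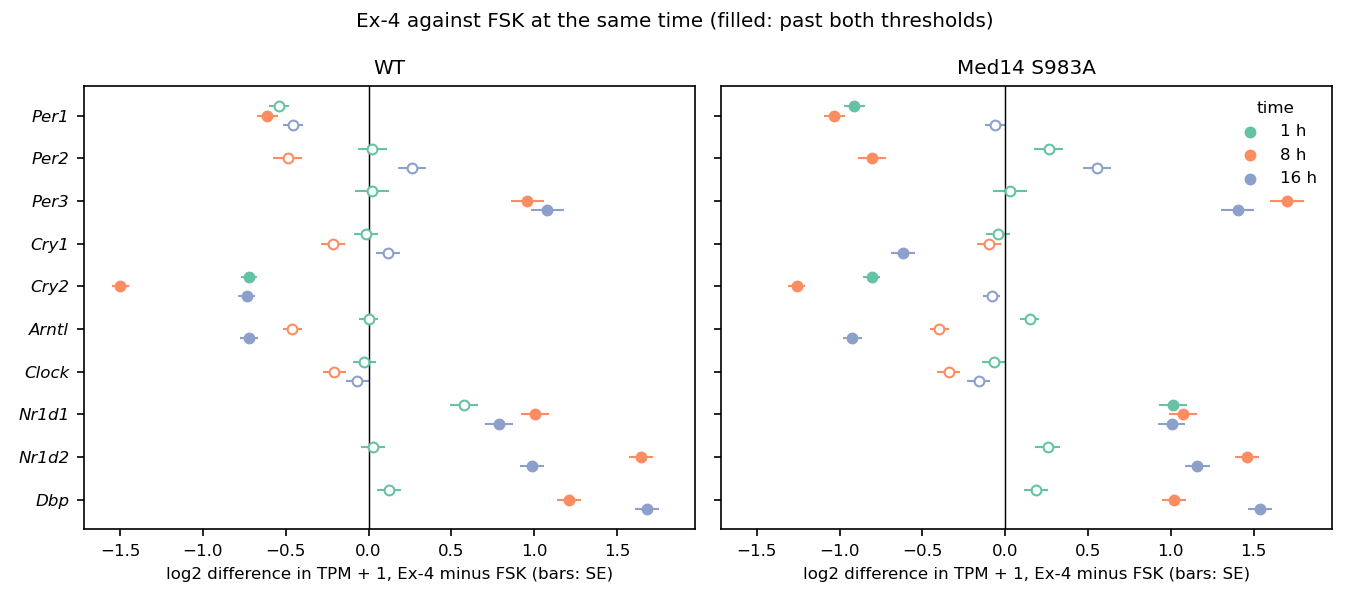
Difference between Ex-4 and FSK at the same time (log2 of TPM + 1, Ex-4 minus FSK, bars SE) for the 10 clock genes in WT and Med14 S983A. Filled points passed both thresholds. *Per3*, *Nr1d1*, *Nr1d2* and *Dbp* lie to the right at 8 and 16 h, and *Cry2* lies to the left at 8 h.

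The comparison of 16 h with 8 h also does not use CON. With no untreated group at either time, longer treatment and the time since the change of medium cannot be told apart here either. In WT, 5 clock genes were called with Ex-4 beside 5.58% of all genes, and 6 with FSK beside 17.6%. *Nr1d1* rose 4.72-fold with Ex-4 (limma adjusted p = 2.88e-16) and 5.48-fold with FSK. *Per2* fell 1.86-fold with Ex-4 and 3.13-fold with FSK, and *Cry1* fell 2.05-fold and 2.58-fold. In Med14 S983A, 5 were called with Ex-4 beside 3.96% and 6 with FSK beside 27.9%. There *Nr1d1* rose 4.32-fold and 4.53-fold, and *Per2* fell 1.61-fold and 4.12-fold. *Cry1* fell 2.597-fold with Ex-4 and 1.81-fold with FSK, the latter lost with ERCC scaling and DESeq2. The Med14 S983A Ex-4 calls of *Per2* and *Dbp* are lost without replicate 2 of its 16 h group, which leaves 3.

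At CON, 4 clock genes differed between the genotypes, where 19.4% of all genes were called. *Per2* was 1.86-fold higher in Med14 S983A (limma adjusted p = 1.46e-09), *Per3* 1.95-fold higher and *Nr1d2* 1.94-fold lower (limma adjusted p = 1.77e-11). *Per1* was 1.51-fold lower, a call lost with median-centring, ERCC scaling, edgeR, DESeq2, without WT CON replicate 1 and without Med14 S983A CON replicate 1 (log2 -0.40 to -0.58, in place of -0.59). *Nr1d1* was 1.38-fold higher and not called, though called with ERCC scaling and DESeq2. Genes around 3 of the called members shifted in the same direction. The 50 tested neighbours of *Per2*, 25 on either side in rn6, had a median log2 difference of 0.81 (49 of 50 higher) beside 0.89 for *Per2*. Those of *Per3* had 0.86 (48 of 50 higher) beside 0.96, and those of *Nr1d2* -0.69 (44 of 50 lower) beside -0.96. Around *Per1* the median was -0.12 beside -0.59. For *Per2*, *Per3* and *Nr1d2*, a difference of the whole chromosome stretch between the lines and one of the gene alone cannot be told apart at CON.

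**Figure D4:**
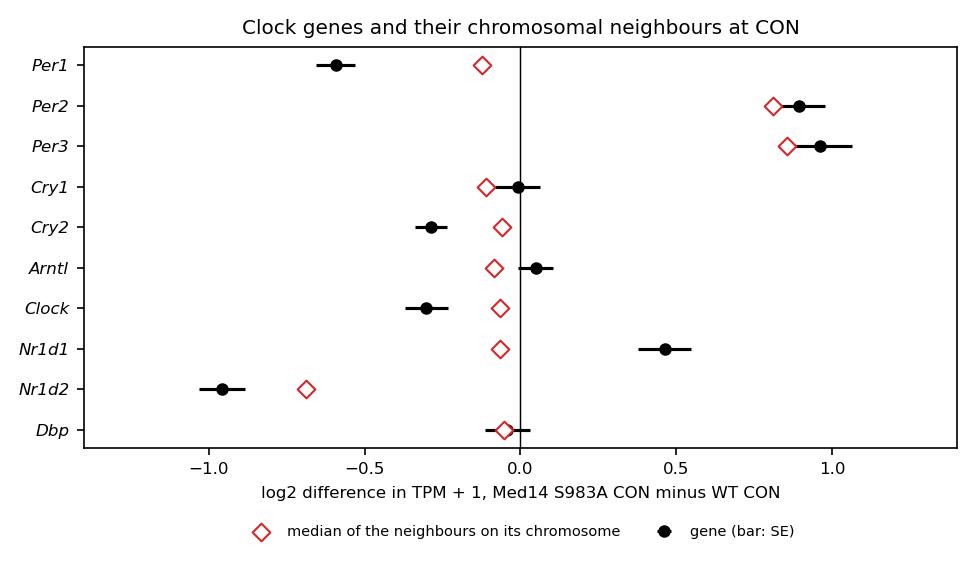
Difference between Med14 S983A CON and WT CON (log2 of TPM + 1) for each clock gene (with its SE) and the median of its 50 tested neighbours, 25 on either side in rn6. For *Per2* (0.89 beside 0.81) and *Per3* (0.96 beside 0.86) gene and neighbours lie close, while *Per1* (-0.59 beside -0.12) and *Nr1d1* (0.46 beside -0.07) stand away from theirs.

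The response was then compared between genotypes, as the change in Med14 S983A minus that in WT. For Ex-4, 0 of the 10 genes were called at 1 h beside 0.672% of all genes, 0 at 8 h beside 2.77% and 1 at 16 h beside 7.24%. At 1 h and at 8 h of Ex-4, 3 of 10 had an unadjusted limma p under 0.05, and edgeR and DESeq2 called 0 at both times. Over both agents, 5 of the 60 pairs of clock gene and treatment were called (8.33%), beside 7.2% of the pairs over all genes, a share near the background. For FSK, 2 were called at 1 h beside 1.64%, 1 at 8 h beside 13.9% and 1 at 16 h beside 17%. *Cry1* at 16 h of FSK differed by 0.78 on the log2 scale (SE 0.10, limma adjusted p = 6.25e-07), having fallen 1.88-fold in WT, beside 1.098-fold in Med14 S983A. *Nr1d1* at 1 h of FSK differed by -0.88 (limma adjusted p = 1.18e-05), the fall being deeper in Med14 S983A. Both kept their call under every alternative run. *Per1* at 1 h of FSK differed by 0.82 (limma adjusted p = 4.00e-07), a call lost with ERCC scaling (0.58). At 16 h of Ex-4 *Per1* differed by 0.70, which falls to 0.57 with median-centring, 0.29 with ERCC scaling and 0.32 in DESeq2. For *Per3* at 8 h of FSK the value of -0.61 turns to 0.082 with a pseudocount of 0.1 TPM and to 0.37 in edgeR, so no direction is given. Its call is also lost without WT CON replicate 2 (-0.49), Med14 S983A CON replicate 2 (-0.57) or Med14 S983A 8 h FSK replicate 2 (-0.53).

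Likeness of pattern was described by Pearson r of mean log2(TPM + 1) over the 14 groups, and the points share the scaling of their libraries. The 3 genes most like *Per1* were *Nr4a3* (r = 0.99), *Nr4a1* and *Nr4a2* (both 0.98), NR4A orphan receptors known as cAMP-induced genes. *Nr4a1* had means of 17.8 TPM in WT CON, 582 TPM at 1 h of Ex-4 and 1625 TPM at 1 h of FSK. Those most like *Cry2* were *Spata2L*, *Slc25a25* and *Cln8* (0.95 to 0.96), and those most like *Per3* were *Vmac*, *Gria2* and *Lrrc57* (all 0.99). *Arntl* had 0.98 with *Wnk4* and 0.97 with *Got1*, *Clock* was most like *Atp2b1*, *Txnl1* and *Prkar1a* (0.95 to 0.97), *Nr1d2* like *Osbpl1a*, *Dlgap4* and *Zfp706* (all 0.99) and *Dbp* like *Tmem109*, *Klhl7* and *Ampd2* (all 0.98). The values were lower for *Per2* (*Tbccd1*, *Agfg1* and *Ssbp3*, 0.91 to 0.94), *Cry1* (*Nup160*, *Polr2d* and *Srrm1*, 0.91 to 0.94) and *Nr1d1* (*Pex11g*, *Zc3h6* and *Ccdc28a*, 0.91 to 0.92). Between members, *Per1* and *Cry2* had r = 0.90 and *Nr1d2* and *Dbp* 0.90, while *Arntl* had -0.87 with *Per3* and -0.83 with *Dbp*.

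Other clock genes came from a list of 20, of which 16 are in the table and 14 were tested. Of these, 11 were called in at least 1 of the 12 treatment comparisons, beside 68.5% of all genes tested, and the 8 with the largest change are described. *Nfil3*, which encodes a repressor at D-box elements, was called higher in 11 of 12. It was at 16.6 and 15.6 TPM in WT CON, 118 and 123 TPM at 1 h of Ex-4 and 230.0 and 233 TPM at 1 h of FSK. *Tef*, which encodes a D-box activator related to DBP, was called lower in 8 of 12 and in none at 1 h, from 35.2 and 34.3 TPM in WT CON to 3.77 and 4.001 TPM at 8 h of FSK. *Rorb*, which encodes an activator at the RORE, was called higher in 4 of 12, at 8 and 16 h of FSK in both genotypes, with 1.09 and 1.38 TPM in WT CON and 8.76 and 9.71 TPM at 8 h of FSK. At 8 h of FSK in both genotypes, genes of repressors and activators of the same element moved in opposite directions for the D-box (*Nfil3* higher, *Tef* and *Dbp* lower) and for the RORE (*Nr1d1* and *Nr1d2* lower, *Rorb* higher). The E-box genes did not divide in this way. There the activator gene *Arntl* and the repressor genes *Per1*, *Per2* and *Cry2* were all called higher, and *Per3* was called lower. In the main limma fit, *Clock* and *Cry1* were called higher in Med14 S983A alone.

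*Ciart*, which encodes a repressor of ARNTL and CLOCK, was called higher in 6 of 12 and lower in 1. It was at 4.23 and 4.72 TPM in WT and 20.9 and 20.9 TPM in Med14 S983A at 8 h of FSK, from 6.72 and 6.101 TPM and 7.32 and 7.29 TPM at CON, a genotype difference in response of 1.84 (limma adjusted p = 2.09e-11). Of the 14 other clock genes tested, such a difference was called for 0, 3 and 4 at 1, 8 and 16 h of Ex-4. The shares of all genes were 0.672%, 2.77% and 7.24%. With FSK the counts were 1, 5 and 5, beside 1.64%, 13.9% and 17%. *Timeless* was called lower in 6 of 12, at 8 and 16 h. *Csnk1e*, which encodes a kinase of PER proteins, was lower in 3, *Noct* higher in 3 at 1 h and lower in 2 at 16 h, and *Npas2*, a paralog of *Clock*, higher in 1 and lower in 1. At CON, *Nfil3* was 2.16-fold lower in Med14 S983A, on chromosome 17, where its 50 neighbours had a median log2 difference of -0.59.

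**Figure D5:**
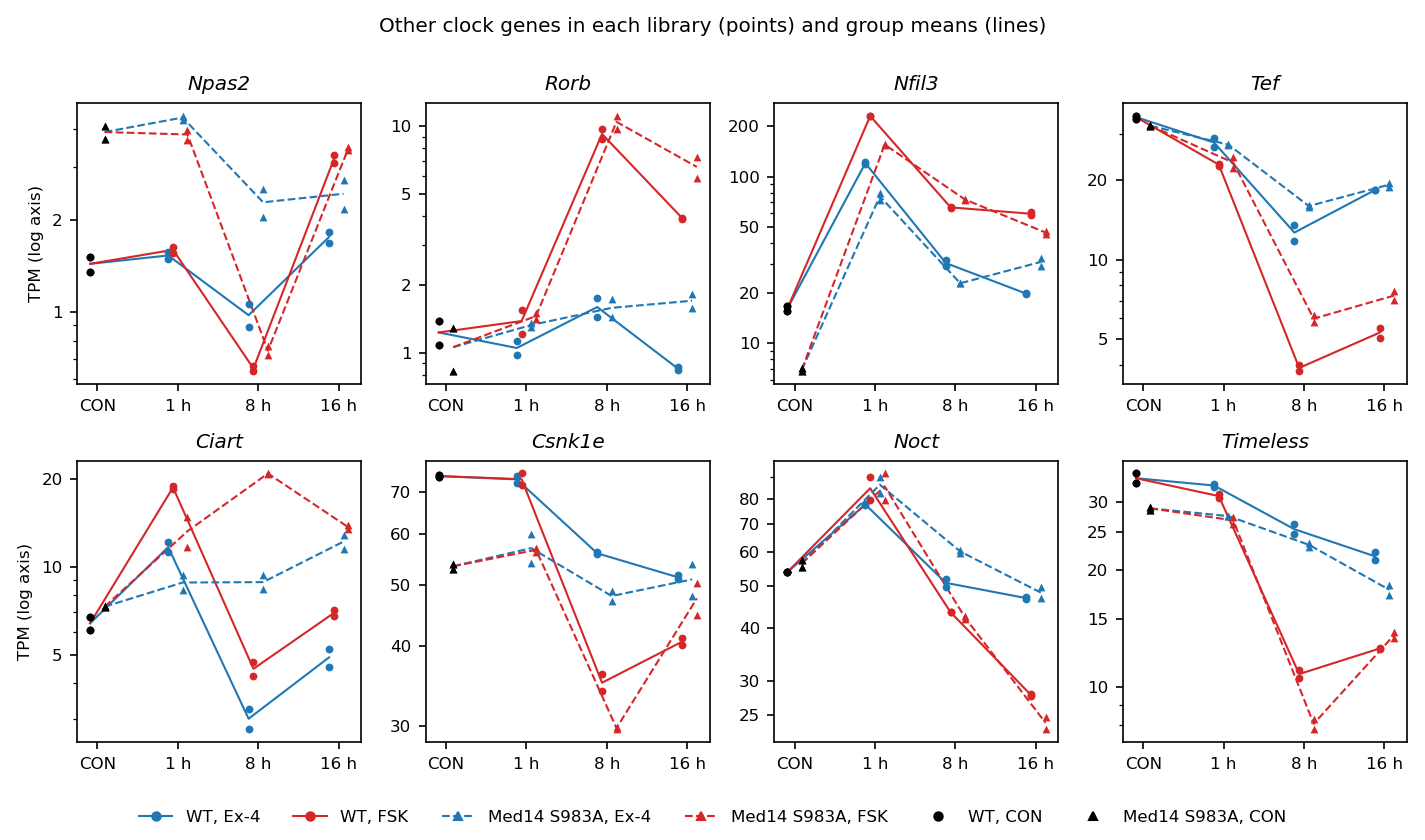
TPM (log axis, a different range in each panel) of 8 other clock genes in each of the 28 libraries (points) at CON and after 1, 8 and 16 h, with lines through the group means. Time points are evenly spaced and not to scale. *Nfil3* peaks at 1 h, *Tef* and *Timeless* have their minimum at 8 h of FSK, and *Rorb* is highest at 8 h of FSK.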

How the data were processed

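RNA-seq of 28 bulk libraries was grouped by the sample titles. Total RNA was used with ERCC spike-in RNA added to a fixed mass of RNA and a stranded library kit. Per the submitters' notes, STAR 2.5.3a placed reads on rn6 plus the spike-ins, and the authors deposited exon-based TPM values from HOMER 4.11.1 together with the exon length of each transcript. Their count file holds QoRTs counts of the 92 ERCC sequences alone, and the authors tested genes with DESeq2 1.24.0 on ERCC size factors. Tool names follow the submitters' processing notes and the study's methods. Library numbers in the column names differ from those in the labels, so columns were matched by genotype, treatment, hours and replicate.

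The table had 19223 lines. Keeping 1 transcript per symbol dropped 1676 and left 17455 symbols, of which 10275 had a mean of at least 1 TPM. Log2(TPM + 1) was fitted with limma 3.58.1 (lmFit, contrasts.fit, eBayes with trend, R 4.3.3) with 14 group means and 14 residual degrees of freedom. The 29 contrasts were two-sided, with Benjamini-Hochberg adjustment over all 10275 genes of a contrast and calls needed an adjusted p below 0.05 with a fold over 1.5. The fit was tested on simulated data. Gene counts were not used here, since the deposited gene table is in TPM, so the study's count test became an alternative.

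The product of TPM and length, scaled by the deposited ERCC counts, gave fragments, and of 146783 low values 100% were whole reads within 0.05 (20.3% by chance, 2 reads per fragment). These fed edgeR 4.0.16 (quasi-likelihood) and DESeq2 1.42.0. Depth limits mainly *Per3*. Other alternatives were a pseudocount of 0.1 TPM, no filter (14852 genes), median-centring, ERCC scaling, the replicate number as a block, each library left out, and summed transcripts. Named genes were the 10 members, Med14, the 8 other clock genes of largest change among those called at least 1 time, and the 3 genes most like each member, of which 1 is not reported here. Members and lists were chosen with earlier results of these data known.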

Additional observations from a re-analysis of the deposited data

Results flagged for a closer look

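The response to treatment differed between Med14 S983A and WT cells, by the interaction in limma past both thresholds, for 5 of 60 pairs of clock gene and treatment (8.33%), beside 7.2% of such pairs over all genes tested. The values are log2 of TPM + 1, the change in Med14 S983A minus the change in WT. *Cry1* at 16 h of FSK gave 0.78 (SE 0.10) and *Nr1d1* at 1 h of FSK gave -0.88 (SE 0.12). *Per1* gave 0.82 (SE 0.088) at 1 h of FSK and 0.70 (SE 0.088) at 16 h of Ex-4. The former call is lost with ERCC scaling, and the latter with median-centring, ERCC scaling and DESeq2. *Per3* at 8 h of FSK gave -0.61 (SE 0.14), and it changed sign with a pseudocount of 0.1 TPM, in edgeR and in DESeq2. Each rests on 2 libraries in each of 4 groups, and at CON the genotypes differed by -0.59 for *Per1* and by 0.46, not called, for *Nr1d1*. *Ciart*, outside the 10 genes, is described with the other clock genes.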

How the results depend on the processing

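The counts of clock genes called kept within 1.5 times under no filter and under the replicate block. The block, for the shared replicate number, left every count as it was, for example 8 in WT at 8 h of FSK. Deviations of same-numbered libraries had a median r of 0.0035 over 91 pairs of groups (-0.28 to 0.28), so no pairing common to all groups was seen. The r was over 0.1 in 17 pairs and under -0.1 in 11, and a pairing within some groups was not tested. Other settings moved some counts. For WT at 16 h of Ex-4 the count went from 5 to 3 with median-centring and to 2 with ERCC scaling and DESeq2, which lost *Nr1d2*, *Cry1* and *Per2*. For Med14 S983A at 16 h of Ex-4 it went from 4 to 2, and at 1 h of FSK from 3 to 5, with ERCC scaling and DESeq2. Genotype differences in response went from 1 to 0 at 16 h of Ex-4 (median-centring), from 2 to 1 at 1 h of FSK (ERCC scaling), from 1 to 0 at 8 h of FSK (pseudocount 0.1, edgeR, DESeq2) and from 1 to 2 (ERCC scaling) or 3 (edgeR, DESeq2) at 16 h of FSK. The call of *Per1* at 16 h of Ex-4 is also lost with ERCC scaling and DESeq2. At 1 h in WT, Ex-4 against FSK went from 1 to 2 with pseudocount 0.1, median-centring, edgeR and DESeq2. With single libraries left out, the 8 h FSK genotype difference ranged from 0 to 1 (0 without WT CON replicate 2, Med14 S983A CON replicate 2 or Med14 S983A 8 h FSK replicate 2), and Med14 S983A Ex-4 16 h against 8 h from 3 to 5. The 8 h FSK difference of *Per3* reversed, at 0.082 with pseudocount 0.1, 0.37 in edgeR and 0.34 in DESeq2, where the pseudocount of 1 TPM exceeds its level. No call of a treatment or of genotype at CON changed sign. ERCC scaling moved the median of all genes from -0.20 to 0.14 in WT at 16 h of FSK, and median-centring moved it from -0.34 to 0.05 at 8 h. Summing the transcripts of a symbol changed no call of the 10 genes. With 1 library left out, the lone library of a group is taken to vary like the others. The cause of the other moves was not tested.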
